A study of Mus musculus with 11 samples.

Results

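The genes described here encode the cyclins, the cyclin-dependent kinases (Cdks) with their inhibitors and substrates, and the machinery of DNA replication and mitosis. They were taken from a list of 52 mouse gene symbols and looked up in the platform annotation of the array, and a gene was kept where at least 1 transcript cluster (the array's unit for a gene or part of a gene) carries that symbol alone. This gave 51 genes of the 19935 measured in the series. Ccnb1 was not analysed here. The genes were put in 9 role groups that follow the order of the cell cycle.

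RNA came from mouse embryonic stem cells (ESCs) on 11 one-colour Affymetrix arrays in 4 groups: Bmpr1a-/- cells after 3 days in N2B27 (n = 3), control cells after 3 days in N2B27 (n = 3), Bmpr1a-/- cells in ESC medium (n = 2, numbered 2 and 3) and control cells in ESC medium (n = 3). Control is the wild-type line E14, and the mutant cells lack Bmpr1a, through which cells sense bone morphogenetic proteins. N2B27 is a defined medium without serum that lets ESCs differentiate. The labels name the mutant lines C1-6, Fr124 and Fr88 without saying which line is on which array, so that genotype and cell line cannot be told apart, and a Bmpr1a-/- array numbered 1 in ESC medium was not analysed here. Whether the replicates are separate cultures is not labelled, and p-values then cover only their spread, which may be technical.

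As background, D-type cyclins with Cdk4 or Cdk6, and then E-type cyclins with Cdk2, phosphorylate the retinoblastoma family of pocket proteins, which releases E2F transcription factors and opens the way to DNA replication. Cyclin A, cyclin B and Cdk1 then drive mitosis, and their genes are switched on late in the cycle through the CCAAT box and an element called the cell cycle homology region. Mouse ESCs are known for a short G1 phase with high cyclin E activity, and G1 lengthens when they differentiate.

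Each value is on a log2 scale and is set against the gene's own baseline, so a gene can be compared between arrays, but its level cannot be set against that of another gene. A difference is that of 2 group means on the log2 scale, with its standard error (SE) from 1 limma fit over the 4 groups, and a gene is said to rise or fall where its Benjamini-Hochberg adjusted p over all genes is under 0.05. Bmpr1a itself stood at 0.15, -0.14 and -0.05 in Bmpr1a-/- cells in N2B27, against 0.61, 0.68 and 0.76 in control cells, and it fell by 0.70 (SE 0.09, adjusted p = 0.00211). In ESC medium it stood at -0.03 and 0.00 in Bmpr1a-/- cells, against 0.37, 0.16 and 0.25 in control cells, a difference of -0.27 (SE 0.10, adjusted p = 0.145). Bmpr1a-/- array 2 in N2B27 stood apart from its group, with a root mean square deviation over all genes of 0.185, against 0.0774 to 0.155 on the other arrays. In bulk RNA, more cells in a phase and more RNA per cell in that phase cannot be told apart.

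Of the 51 genes, 41 have an entry in the RefSeq promoter table (GRCm38.p6), with 250 bases before and 50 bases after the annotated start. A gene with more than 1 annotated start was counted where any of its windows matched. CCAAT stood on either strand in a window of 30 of the 41 genes (73.2%), against 41.1% of the 27025 genes in the table. TTTGAA, the only form searched for the cell cycle homology region, stood there for 16 genes (39.0%), against 20.2%. For E2F the search took TTGGCGC, with the close forms that carry TTCGCGC in its place and those that carry TTCCCGC, on either strand. At least 1 of these forms stood there for 16 genes (39.0%), against 9.20%. The roles differed: all 4 mitotic cyclin and entry kinase genes with a window held both CCAAT and TTTGAA, and 1 of the 4 held E2F letters, while 5 of 8 replication licensing and fork genes held E2F letters and 2 of the 8 held TTTGAA. Of the 9 mitotic apparatus genes, 8 held CCAAT and 6 held TTTGAA. A match describes these letters and is not a measured binding site. The windows of 6 genes follow, from 150 bases before the start to 30 bases from the start on, as examples of roles and of their motif letters: Mcm6 for replication licensing, Rrm2 for nucleotide supply, Cdk1 and Ccnb2 for mitotic entry, Bub1 for the spindle checkpoint and Cdc25b for the phosphatases of G2. Rrm2, Ccnb2, Bub1 and Cdc25b were called in a comparison given below, while Mcm6 and Cdk1 were called in none in the reported fit. Capitals mark CCAAT, which reads from the other strand as ATTGG, and likewise TTTGAA and the E2F letters on either strand.
Mcm6 (chr1:128359676-128359855, minus strand): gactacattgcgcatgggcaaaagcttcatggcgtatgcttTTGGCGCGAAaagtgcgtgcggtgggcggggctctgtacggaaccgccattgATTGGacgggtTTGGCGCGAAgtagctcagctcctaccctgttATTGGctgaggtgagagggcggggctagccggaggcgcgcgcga
Rrm2 (chr12:24708104-24708283, plus strand): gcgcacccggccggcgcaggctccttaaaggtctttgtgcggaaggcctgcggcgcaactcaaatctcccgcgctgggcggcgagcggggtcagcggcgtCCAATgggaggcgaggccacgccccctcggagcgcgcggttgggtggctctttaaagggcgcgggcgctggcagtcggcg
Cdk1 (chr10:69352883-69353062, minus strand): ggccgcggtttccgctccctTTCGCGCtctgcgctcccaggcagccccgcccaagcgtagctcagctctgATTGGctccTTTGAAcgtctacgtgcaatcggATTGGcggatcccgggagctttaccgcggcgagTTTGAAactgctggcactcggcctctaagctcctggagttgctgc
Ccnb2 (chr9:70421525-70421704, minus strand): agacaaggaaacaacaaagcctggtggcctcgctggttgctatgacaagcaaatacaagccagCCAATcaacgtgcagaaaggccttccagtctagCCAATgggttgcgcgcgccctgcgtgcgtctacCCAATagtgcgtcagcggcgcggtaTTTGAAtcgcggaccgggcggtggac
Bub1 (chr2:127831830-127832009, minus strand): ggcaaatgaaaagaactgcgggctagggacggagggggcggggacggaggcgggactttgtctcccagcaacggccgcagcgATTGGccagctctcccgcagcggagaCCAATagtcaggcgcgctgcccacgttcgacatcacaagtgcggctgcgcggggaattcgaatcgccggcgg
Cdc25b (chr2:131186798-131186977, plus strand): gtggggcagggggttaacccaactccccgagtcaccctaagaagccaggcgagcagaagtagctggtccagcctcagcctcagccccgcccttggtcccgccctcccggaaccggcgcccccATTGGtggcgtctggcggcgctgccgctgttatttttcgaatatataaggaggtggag
Counted with the annotated start as 0, Ccnb2 has CCAAT at -87, -54 and -21 and TTTGAA at 4. Cdk1 has ATTGG at -80 and -48 and TTTGAA at -71 and -15. In Mcm6 the E2F letters of both strands overlap each other, from -109 and again from -46. Rrm2, Bub1 and Cdc25b hold CCAAT and neither TTTGAA nor the E2F letters searched in their windows. Other forms of the homology region, such as TTCGAA, were not searched, and TTCGAA stands in the Bub1 and Cdc25b windows above.

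**Figure D1:**
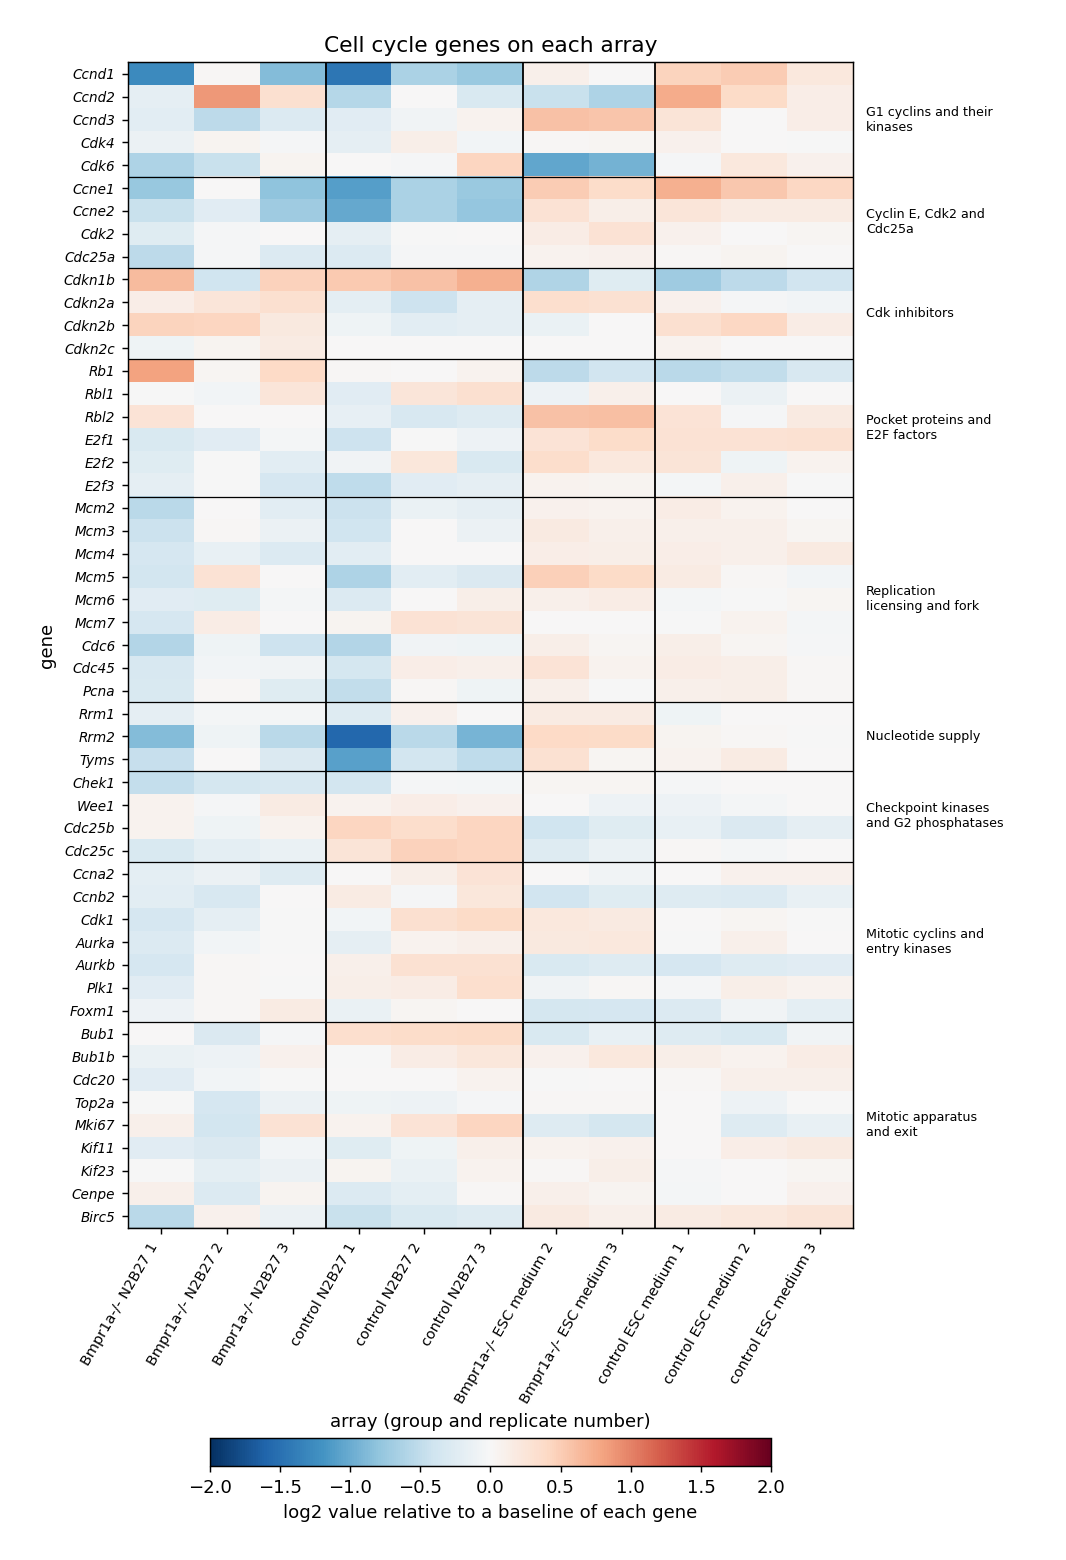
Log2 value of each of the 51 genes (rows, grouped by role) on each of the 11 arrays (columns, by group and replicate number), relative to the gene's own baseline; red is above and blue below it, and the colour scale runs to 2 on either side. Ccnd1, Ccne1, Ccne2 and Rrm2 are blue on most N2B27 arrays of both genotypes, and Cdkn1b is red on 5 of the 6.

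The first question is what N2B27 does to these genes in each genotype. In Bmpr1a-/- cells, 3 of the 4 genes of the cyclin E group fell with N2B27 (Ccne1, Ccne2 and Cdk2). Of the 5 G1 cyclin and kinase genes Ccnd3 fell, and Ccnd2 and Cdk6 rose. E2f1, Rbl2, Mcm4 (1 of 9 licensing and fork genes), Rrm2, Chek1 and Aurka fell, and Rb1, Cdkn2b, Cdc25b and Foxm1 rose. The falls ran to 0.97 and the rises to 0.87. This made 6 genes that rose and 10 that fell, or 31.4% of the 51, against 25.2% of all genes called (14.9% rose and 10.3% fell), with a median of -0.22, against 0.01 over all genes. The groups did not overlap for 34 of the 51, against 43.5% of all genes.

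The count in Bmpr1a-/- cells depended on single arrays. Without Bmpr1a-/- array 2 in ESC medium, where the lone array is taken to vary like the other groups, only Ccnd3, Rbl2 and E2f1 fell, and the other 13 had adjusted p between 0.0516 and 0.165. Without Bmpr1a-/- array 3 in ESC medium 8 were called, and Ccnd2, Cdk6, Cdk2, E2f1, Rrm2, Chek1, Aurka and Foxm1 were lost (adjusted p = 0.0617 to 0.233). Without Bmpr1a-/- array 2 in N2B27, the array that stood apart, 25 were called: Ccnd2 was lost (adjusted p = 0.0869), and Cdkn1b, Ccnd1, Cdc25a, E2f2, Mcm2, Mcm3, Mcm5, Cdc6, Birc5 and Mki67 were gained (adjusted p = 0.000871 to 0.0420). Ccnd3 and Rbl2 kept their call under every alternative run that includes them.

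In control cells, 2 of the 4 genes of the cyclin E group (Ccne1 and Ccne2) and 1 of the 5 G1 cyclin and kinase genes (Ccnd1) fell, as did E2f1, E2f3, Rbl2, Rrm2, Tyms, Cdkn2a, Cdkn2b and Birc5. None of the 9 licensing and fork genes was called. Cdkn1b and Rb1 rose, together with Cdc25b, Cdc25c, Ccnb2, Aurkb and Bub1. The falls ran to 1.38 and the rises to 1.15. In all, 7 genes rose and 11 fell, or 35.3% of the 51, against 26.1% of all genes called (12.8% rose and 13.3% fell), and the median difference was -0.10, against 0.02 over all genes. The groups did not overlap for 31 of the 51 genes, against 43.9% of all genes. The calls of Rb1, E2f3, Cdkn2a, Ccnb2 and Rbl2 were each lost without some array, at adjusted p between 0.0517 and 0.141, Rb1 whichever of the 6 control arrays was left out and Rbl2 without control array 1 in ESC medium alone. With the replicate number as a block, Ccnd2 and Mcm5 also fell (adjusted p = 0.0396 and 0.0462). The genotypes share no arrays in these comparisons. Rb1 and Cdc25b rose in both, and Ccne1, Ccne2, Rbl2, E2f1 and Rrm2 fell in both. The 2 that rose are 33.3% of those that rose in Bmpr1a-/- cells and 28.6% of those that rose in control cells, against 58.8% and 68.4% over all genes. The 5 that fell are 50% of those that fell in Bmpr1a-/- cells and 45.5% of those that fell in control cells, against 71.8% and 55.4% over all genes.

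**Figure D2:**
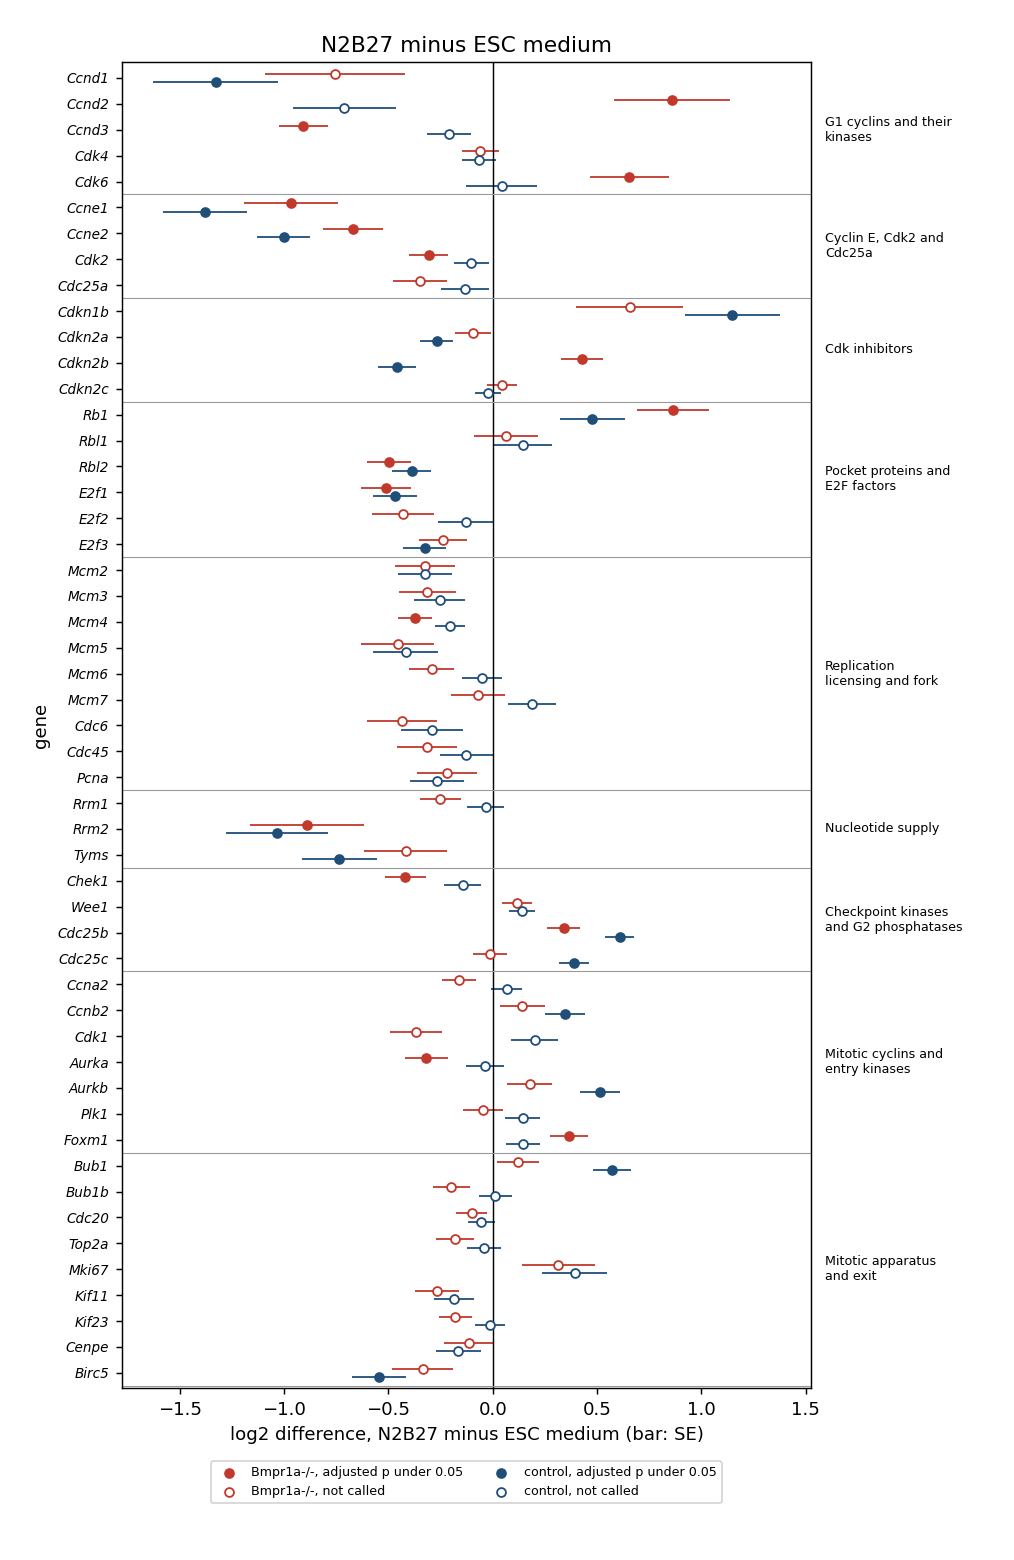
Log2 difference between N2B27 and ESC medium (horizontal axis, bar: SE) for each of the 51 genes (rows, by role), in Bmpr1a-/- cells (red) and control cells (blue), with filled points where the adjusted p was under 0.05. Cyclin E, Rrm2 and E2f1 lie left of 0 in both genotypes, while Cdc25c and Bub1 lie right of 0 with filled points in control cells alone.

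The second question is how cells without Bmpr1a differ from control in each medium. In N2B27 the mutant cells had lower Cdc25b, Cdc25c, Ccna2 and Bub1, genes of G2 and mitosis, by 0.32 to 0.60, and higher Cdkn2a and Cdkn2b, which encode Cdk inhibitors, by 0.49 and 0.52. These 6 genes are 11.8% of the 51, against 5.74% of all genes called (4.1% higher and 1.64% lower). The median difference was -0.08, against -0.00 over all genes, and 20 of the 51 had an unadjusted p under 0.05, against 3856 of all 19935 genes. The groups did not overlap for 10 of the 51, against 20.2% of all genes. With the replicate number as a block 11 genes were called: Cdk1, Ccnb2, Aurkb and Plk1 also fell and Rbl2 rose (adjusted p = 0.0152 to 0.0420). Bub1, Ccna2 and Cdc25b lost their call without control array 3 in N2B27 (adjusted p = 0.0575 to 0.120) and Bub1 and Ccna2 without control array 2 (0.0578 and 0.0938). Ccna2 was also lost without Bmpr1a-/- array 1 (adjusted p = 0.0685) or array 3 (0.0868).

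In ESC medium 2 of the 51 genes were called (3.92%, against 6.14% of all genes, 3.09% higher and 3.05% lower), which is no more than the background. Cdk6 fell and Rbl2 rose in the mutant cells, and 7 of the 51 had an unadjusted p under 0.05, against 3539 of all 19935 genes. The median difference was 0.02, against -0.01 over all genes. The groups did not overlap for 21 of the 51, against 39.4% of all genes. Both calls were lost without either Bmpr1a-/- array, at adjusted p of 0.0961 and 0.1995 without array 2 and of 0.0566 and 0.179 without array 3, and after quantile normalization (0.133 and 0.237). Rbl2 was also lost without control array 2 (adjusted p = 0.113) or array 3 (0.0869). Neither gene was called in N2B27 in the reported fit, although Rbl2 was with the replicate block (adjusted p = 0.0152) or array weights (0.0347). With the replicate number as a block, Ccnd2 was also called lower and Ccnd3 higher in ESC medium (adjusted p = 0.0424 and 0.0499). Over all genes, 205 of the 615 higher in ESC medium were also higher in N2B27 (33.3%), and 61 of the 609 lower were also lower (10.0%).

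Several measured differences between the genotypes stand beside these results. Rbl2 and Mcm5 lie on chromosome 8, and none of the 51 on X. Of the 11 measured genes on chromosome 8 or X among these and the related lists given at the end, 4 were higher and none lower in Bmpr1a-/- cells in N2B27, and 6 were higher and none lower in ESC medium. Of the 132 on other chromosomes, 4 were higher and 11 lower in N2B27, and none was higher and 5 were lower in ESC medium. Calls over all genes dropped too without these chromosomes, but the share of all their genes that was called was not counted. Over all genes, 1144 were called in N2B27 (817 higher), and 610 (389 higher) in a refit without chromosomes 8, X and Y. In ESC medium these numbers were 1224 (615 higher) and 766 (268 higher). Refitted without chromosomes 8, X and Y, the same 6 genes were called in N2B27, but none of the 6 lies on these chromosomes. Their differences stay the same in that refit, so it cannot show what part these chromosomes have in the calls. Markers of pluripotent cells differed as well: 3 of 9 were higher in Bmpr1a-/- cells in N2B27 (33.3%, against 4.1% of all genes). The mean value of the 9 per array was -0.52 to -0.23, against -1.08 to -0.74 in control cells. The part of these differences in the cell cycle results was not tested.

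**Figure D3:**
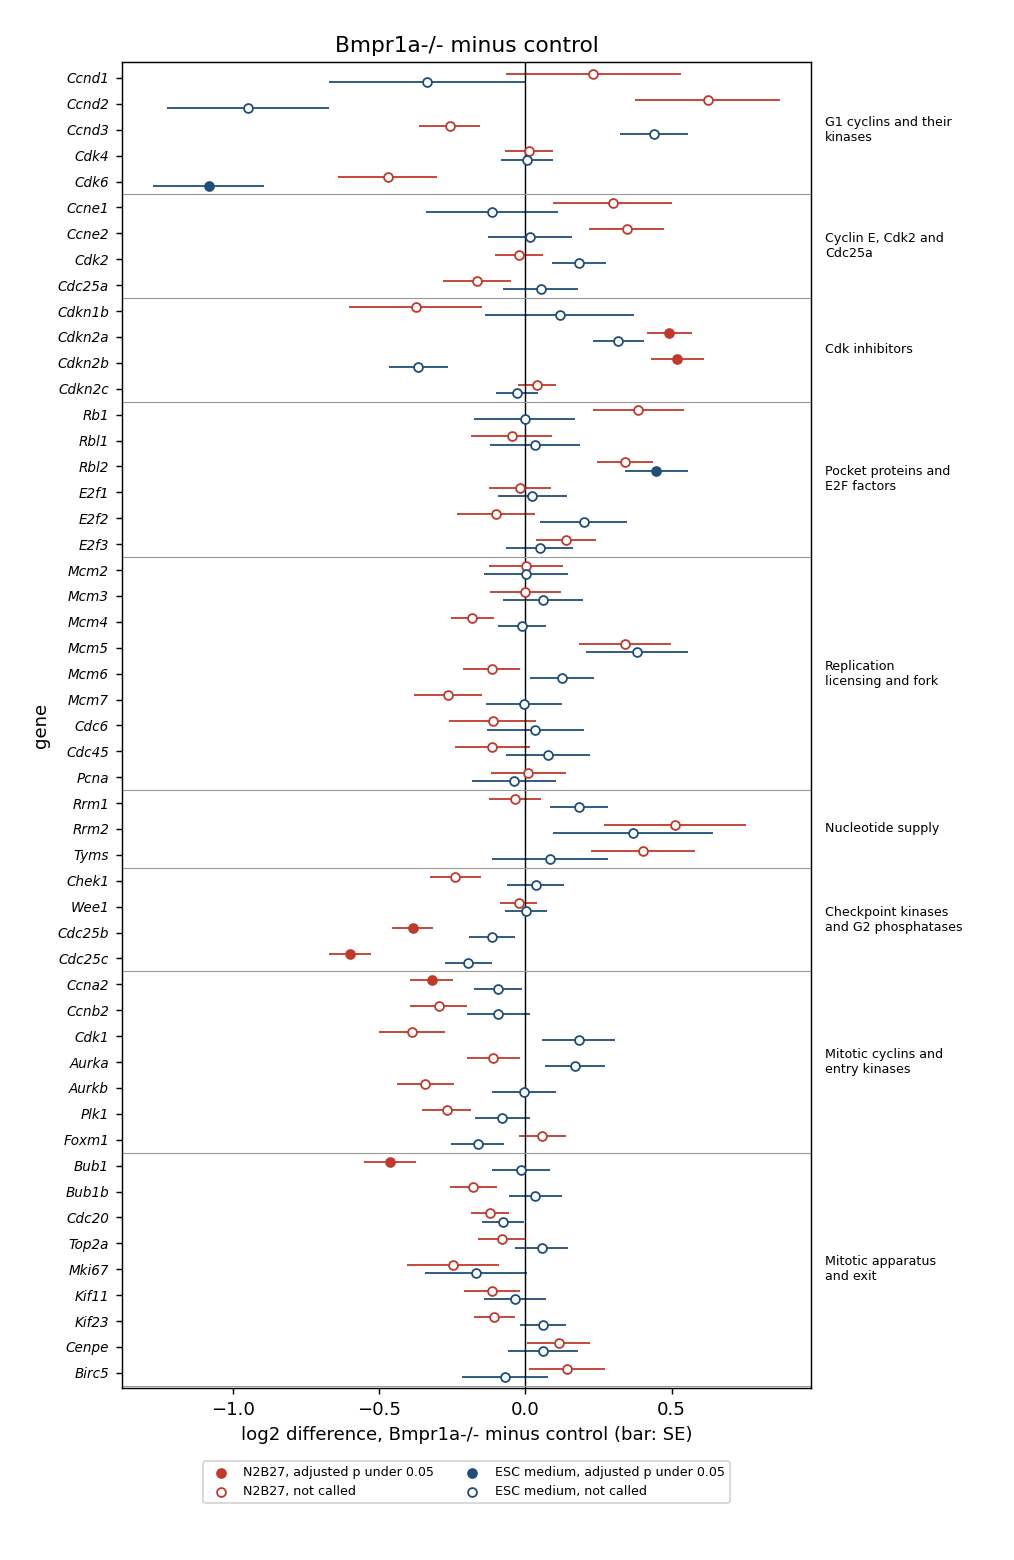
Log2 difference between Bmpr1a-/- and control cells (horizontal axis, bar: SE) for each of the 51 genes (rows, by role), in N2B27 (red) and in ESC medium (blue), with filled points where the adjusted p was under 0.05. In N2B27 the filled points are Cdkn2a and Cdkn2b to the right and Cdc25b, Cdc25c, Ccna2 and Bub1 to the left; in ESC medium they are Cdk6 and Rbl2.

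The genotype difference in N2B27 was also set against that in ESC medium in an interaction term. Cdkn2b was called (0.88, SE 0.14, adjusted p = 0.0131), and no other gene of the 51 was. That is 1.96%, against 2.12% of all genes (1.57% higher and 0.552% lower), and 9 of the 51 had an unadjusted p under 0.05, against 2725 of all 19935 genes. The call was lost without Bmpr1a-/- array 2 in ESC medium (adjusted p = 0.0826). The D-type cyclin genes were nearest to a call: Ccnd2 had 1.57 (SE 0.37, adjusted p = 0.0641) and Ccnd3 had -0.70 (SE 0.16, adjusted p = 0.0545). Both were called with the replicate number as a block (adjusted p between 0.0379 and 0.0473). Cdc25c and Bub1, which were called between genotypes in N2B27 and not in ESC medium, were not called here: the interaction was -0.40 for Cdc25c (SE 0.11, adjusted p = 0.101) and -0.45 for Bub1 (SE 0.13, adjusted p = 0.146). A difference between the media was thus not shown for them.

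The D-type cyclins, which carry growth signals into G1, behaved unlike one another. Ccnd1 (cyclin D1) stood at -1.27, 0.02 and -0.87 in Bmpr1a-/- cells in N2B27 and at -1.44, -0.64 and -0.74 in control cells in N2B27, against 0.10 and 0.00 in Bmpr1a-/- cells in ESC medium and 0.44, 0.51 and 0.21 in control cells in ESC medium. In Bmpr1a-/- cells the media overlapped through array 2 and the difference was -0.76 (SE 0.33, adjusted p = 0.140). In control cells the media did not overlap and the gene fell by 1.33 (SE 0.30, adjusted p = 0.00866).

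Ccnd2 (cyclin D2) stood at -0.17, 0.86 and 0.32 in Bmpr1a-/- cells in N2B27 and at -0.56, 0.00 and -0.30 in control cells in N2B27, against -0.44 and -0.61 in Bmpr1a-/- cells in ESC medium and 0.74, 0.39 and 0.14 in control cells in ESC medium. All 3 mutant arrays in N2B27 were above both in ESC medium and the gene rose by 0.86 (SE 0.28, adjusted p = 0.0449). All 3 control arrays in N2B27 were below those in ESC medium (-0.71, SE 0.25, adjusted p = 0.0597). The genotype difference was 0.62 in N2B27 (SE 0.25, adjusted p = 0.195) and -0.95 in ESC medium (SE 0.28, adjusted p = 0.0794).

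Ccnd3 (cyclin D3) ran the other way from Ccnd2 between media in Bmpr1a-/- cells, but not in control cells. Ccnd3 stood at -0.22, -0.52 and -0.27 in Bmpr1a-/- cells in N2B27 and -0.23, -0.07 and 0.07 in control cells in N2B27, against 0.59 and 0.55 in Bmpr1a-/- cells in ESC medium and 0.26, 0.00 and 0.13 in control cells in ESC medium. The mutant arrays in ESC medium were the highest of all 11. The gene fell by 0.91 in Bmpr1a-/- cells (SE 0.12, adjusted p = 0.000396), while control arrays overlapped (-0.21, SE 0.10, adjusted p = 0.191).

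Of the kinases that D-type cyclins activate, Cdk6 stood at -0.62, -0.44 and 0.05 in Bmpr1a-/- cells in N2B27 and 0.00, -0.02 and 0.43 in control cells in N2B27, against -1.04 and -0.94 in Bmpr1a-/- cells in ESC medium and -0.02, 0.22 and 0.08 in control cells in ESC medium. Both mutant arrays in ESC medium were the lowest of the 11, and against control the gene fell by 1.08 (SE 0.19, adjusted p = 0.00883). In N2B27 the genotypes overlapped (-0.47, SE 0.17, adjusted p = 0.153), and with N2B27 Cdk6 rose by 0.65 in Bmpr1a-/- cells (SE 0.19, adjusted p = 0.0289) and differed by 0.04 in control cells (SE 0.17, adjusted p = 0.918). Cdk4, its close relative, overlapped in all 4 pairwise comparisons, with differences of -0.07 to 0.01.

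Cyclin E, the partner of Cdk2 at the start of S phase, fell in N2B27 in both genotypes. Ccne1 (cyclin E1) stood at -0.76, 0.00 and -0.81 in Bmpr1a-/- cells in N2B27 and -1.10, -0.63 and -0.74 in control cells in N2B27, against 0.51 and 0.37 in Bmpr1a-/- cells in ESC medium and 0.71, 0.54 and 0.42 in control cells in ESC medium. Every N2B27 array lay below every ESC medium array of the 2 genotypes, and the gene fell by 0.97 in Bmpr1a-/- cells (SE 0.23, adjusted p = 0.0103) and by 1.38 in control cells (SE 0.20, adjusted p = 0.000872).

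Ccne2 (cyclin E2) gave the same picture, at -0.44, -0.23 and -0.72 in Bmpr1a-/- cells in N2B27 and -1.03, -0.63 and -0.77 in control cells in N2B27, against 0.29 and 0.12 in Bmpr1a-/- cells in ESC medium and 0.24, 0.16 and 0.17 in control cells in ESC medium. It fell by 0.67 in Bmpr1a-/- cells (SE 0.14, adjusted p = 0.00654) and by 1.00 in control cells (SE 0.13, adjusted p = 0.000403). For neither gene was a genotype difference called in either medium (-0.11 to 0.35). Cdk2 itself fell by 0.31 in Bmpr1a-/- cells (SE 0.09, adjusted p = 0.0339) and differed by -0.10 in control cells (SE 0.08, adjusted p = 0.464). For Cdc25a, a phosphatase that activates Cdk2, the arrays of both genotypes did not overlap between media, and neither difference was called (-0.35 in Bmpr1a-/- cells, adjusted p = 0.0764, and -0.13 in control cells, adjusted p = 0.508).

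Among the Cdk inhibitors, Cdkn1b restrains cyclin E with Cdk2. It stood at 0.64, -0.40 and 0.46 in Bmpr1a-/- cells in N2B27 and 0.52, 0.59 and 0.72 in control cells in N2B27, against -0.60 and -0.24 in Bmpr1a-/- cells in ESC medium and -0.71, -0.52 and -0.38 in control cells in ESC medium. Mutant array 2 lay at the level of ESC medium and the other 5 N2B27 arrays lay well above it. The difference between media was 0.66 in Bmpr1a-/- cells (SE 0.26, adjusted p = 0.0930), and in control cells the gene rose by 1.15 (SE 0.23, adjusted p = 0.00454). Its 2 transcript clusters, averaged here, disagreed in the mutant, at 0.83 (adjusted p = 0.00565) and 0.48 (adjusted p = 0.412).

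Cdkn2a and Cdkn2b, neighbouring genes for inhibitors of Cdk4 and Cdk6, were the members higher in Bmpr1a-/- cells in N2B27. Cdkn2a has more than 1 annotated start and is read by 1 transcript cluster, so its value cannot be assigned to the transcript of the inhibitor. Cdkn2a stood at 0.13, 0.24 and 0.32 in Bmpr1a-/- cells in N2B27 and -0.20, -0.41 and -0.18 in control cells in N2B27, against 0.34 and 0.31 in Bmpr1a-/- cells in ESC medium and 0.08, -0.02 and -0.05 in control cells in ESC medium. The genotypes did not overlap in either medium, with a rise of 0.49 in N2B27 (SE 0.08, adjusted p = 0.00660) and a difference of 0.32 in ESC medium (SE 0.09, adjusted p = 0.0624). Between media it differed by -0.09 in Bmpr1a-/- cells (SE 0.09, adjusted p = 0.532) and fell by 0.27 in control cells (SE 0.08, adjusted p = 0.0281).

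Cdkn2b stood at 0.45, 0.44 and 0.19 in Bmpr1a-/- cells in N2B27 and -0.09, -0.21 and -0.19 in control cells in N2B27, against -0.14 and 0.00 in Bmpr1a-/- cells in ESC medium and 0.32, 0.41 and 0.16 in control cells in ESC medium. The genotypes did not overlap in either medium and took opposite orders: the gene was higher in the mutant in N2B27 (0.52, SE 0.09, adjusted p = 0.0108), and the difference in ESC medium was -0.37 (SE 0.10, adjusted p = 0.0653). N2B27 raised it by 0.43 in Bmpr1a-/- cells (SE 0.10, adjusted p = 0.0111), and in control cells it fell by 0.46 (SE 0.09, adjusted p = 0.00432). Cdkn2c, another gene of this family, stood at -0.08, 0.06 and 0.16 in Bmpr1a-/- cells and 0.00, 0.00 and 0.01 in control cells in N2B27, and between 0.00 and 0.07 on the arrays in ESC medium. It was called in none of the comparisons.

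**Figure D4:**
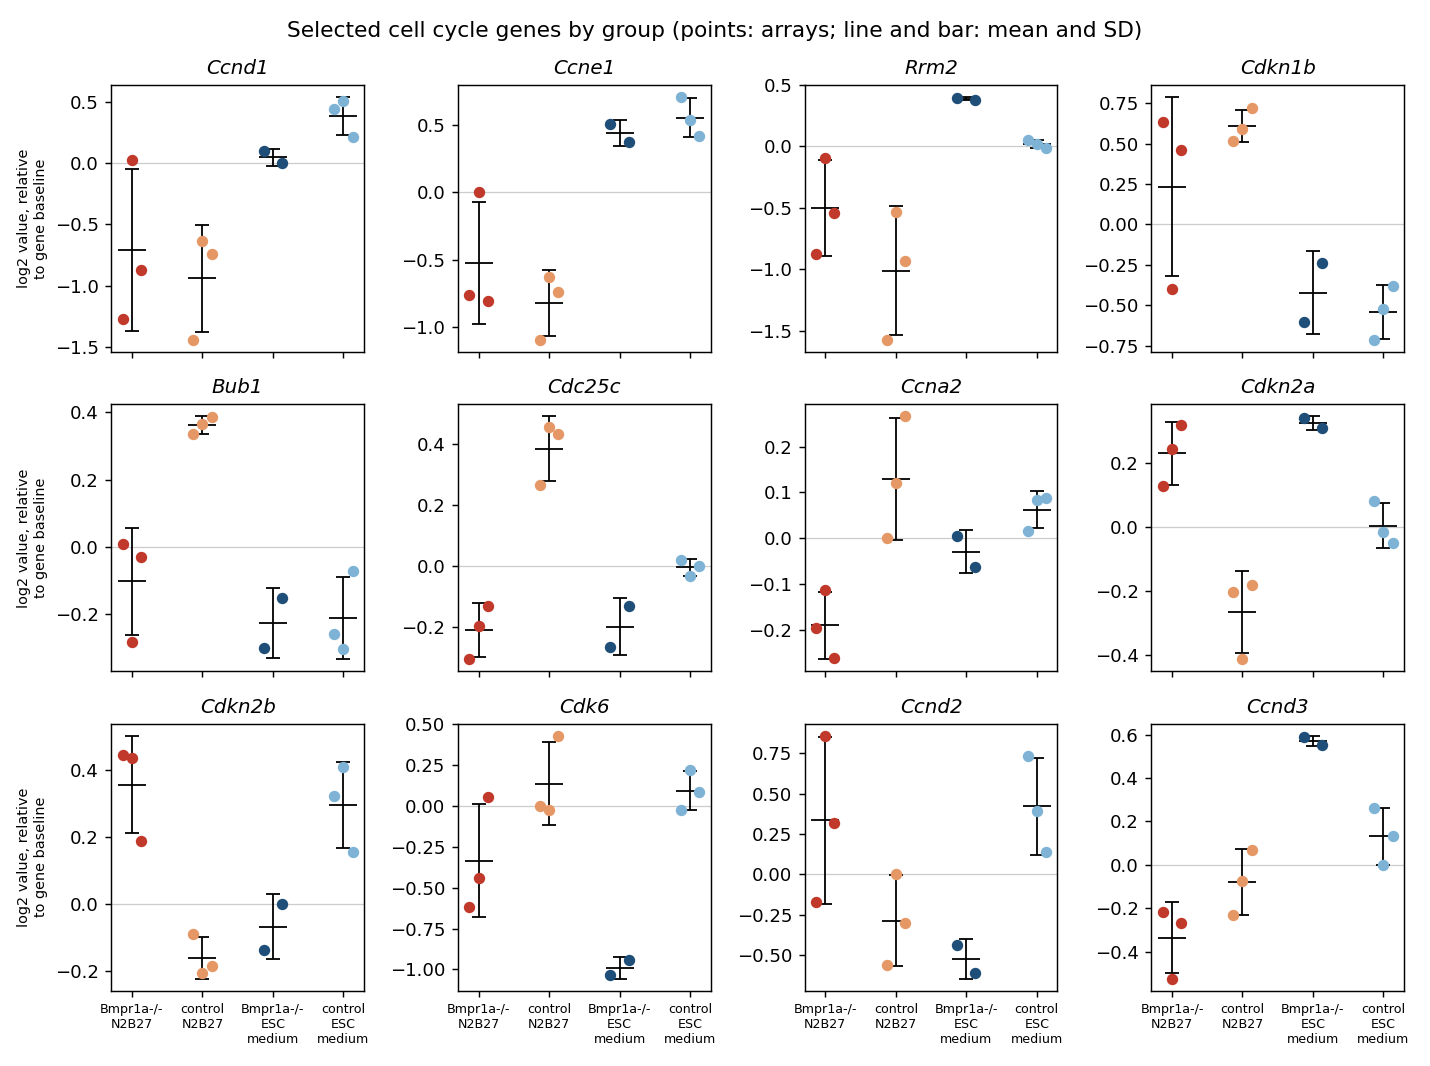
Log2 value relative to the gene's baseline (vertical axis, own scale per panel) of 12 genes on each array (points) in the 4 groups, with the mean and SD of each group. Ccnd1, Ccne1 and Rrm2 are lower and Cdkn1b is higher in N2B27 than in ESC medium in control cells; Bub1 and Cdc25c are high in control cells in N2B27 alone, and Cdkn2b takes opposite genotype orders in the 2 media.

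The pocket protein gene Rb1 rose in N2B27 in both genotypes. It stood at 0.80, 0.04 and 0.40 in Bmpr1a-/- cells in N2B27 and 0.02, 0.00 and 0.07 in control cells in N2B27, against -0.52 and -0.38 in Bmpr1a-/- cells in ESC medium and -0.54, -0.50 and -0.31 in control cells in ESC medium. The rise was 0.87 in Bmpr1a-/- cells (SE 0.17, adjusted p = 0.00446) and 0.48 in control cells (SE 0.15, adjusted p = 0.0450). Its relative Rbl2 went the other way, at 0.28, 0.00 and 0.00 in Bmpr1a-/- cells in N2B27 and -0.17, -0.32 and -0.26 in control cells in N2B27, against 0.58 and 0.60 in Bmpr1a-/- cells in ESC medium and 0.27, -0.02 and 0.17 in control cells in ESC medium. In both media every mutant array lay above every control array. Rbl2 fell with N2B27 by 0.50 in Bmpr1a-/- cells (SE 0.11, adjusted p = 0.00663) and by 0.39 in control cells (SE 0.10, adjusted p = 0.0130), and against control it rose by 0.45 in the mutant in ESC medium (SE 0.11, adjusted p = 0.0350). The third pocket protein gene, Rbl1, overlapped in all 4 pairwise comparisons.

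E2f1, an activator of S phase genes, stood at -0.31, -0.23 and -0.04 in Bmpr1a-/- cells in N2B27 and -0.42, -0.00 and -0.11 in control cells in N2B27, against 0.27 and 0.36 in Bmpr1a-/- cells in ESC medium and 0.29, 0.29 and 0.30 in control cells in ESC medium. The media did not overlap, and the fall was 0.51 in Bmpr1a-/- cells (SE 0.12, adjusted p = 0.00966) and 0.47 in control cells (SE 0.11, adjusted p = 0.00841). E2f3 differed by -0.24 in Bmpr1a-/- cells (adjusted p = 0.182) and fell by 0.32 in control cells (SE 0.10, adjusted p = 0.0411), where its 2 clusters gave -0.26 (adjusted p = 0.121) and -0.39 (adjusted p = 0.0261). E2f2 was called in neither genotype.

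Of the 9 replication licensing and fork genes, 1 was called between media, in Bmpr1a-/- cells. These genes load and fire the helicase at origins (Mcm2 to Mcm7, Cdc6, Cdc45) or clamp the polymerase to DNA (Pcna). Differences between media ran from -0.46 to -0.07 in Bmpr1a-/- cells, with a median of -0.32, and from -0.42 to 0.19 in control cells, with a median of -0.25. Mcm4 fell by 0.37 in Bmpr1a-/- cells (SE 0.08, adjusted p = 0.00730). Mcm2 stood at -0.54, 0.01 and -0.21 in Bmpr1a-/- cells in N2B27 and -0.43, -0.13 and -0.17 in control cells in N2B27, against 0.09 and 0.07 in Bmpr1a-/- cells in ESC medium and 0.15, 0.08 and 0.00 in control cells in ESC medium. The media did not overlap in either genotype, and the difference was -0.32 in both (adjusted p = 0.136 in Bmpr1a-/- cells and 0.0931 in control cells). Pcna is read by 2 clusters whose differences almost coincide, and where its probes match near-identical copies they cannot be told apart.

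In N2B27, array 1 of either genotype was the low one for these genes. It was the lowest of its group for 8 of the 9 licensing and fork genes in Bmpr1a-/- cells and for 9 of 9 in control cells. The mean of the 9 genes was -0.38, -0.00 and -0.15 on Bmpr1a-/- arrays 1, 2 and 3 in N2B27 and -0.37, 0.00 and -0.03 on the control arrays, against 0.16 and 0.11 on the Bmpr1a-/- arrays and 0.02 to 0.10 on the control arrays in ESC medium. Over the 51 genes the median SD within a group was 0.159 in Bmpr1a-/- cells and 0.154 in control cells in N2B27, above the 0.131 and 0.0810 of all genes. In ESC medium it was 0.0571 in Bmpr1a-/- cells and 0.0653 in control cells, against 0.0601 and 0.0770 over all genes. The labels do not say what arrays of one number share, and the part of it in these results was not tested.

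**Figure D5:**
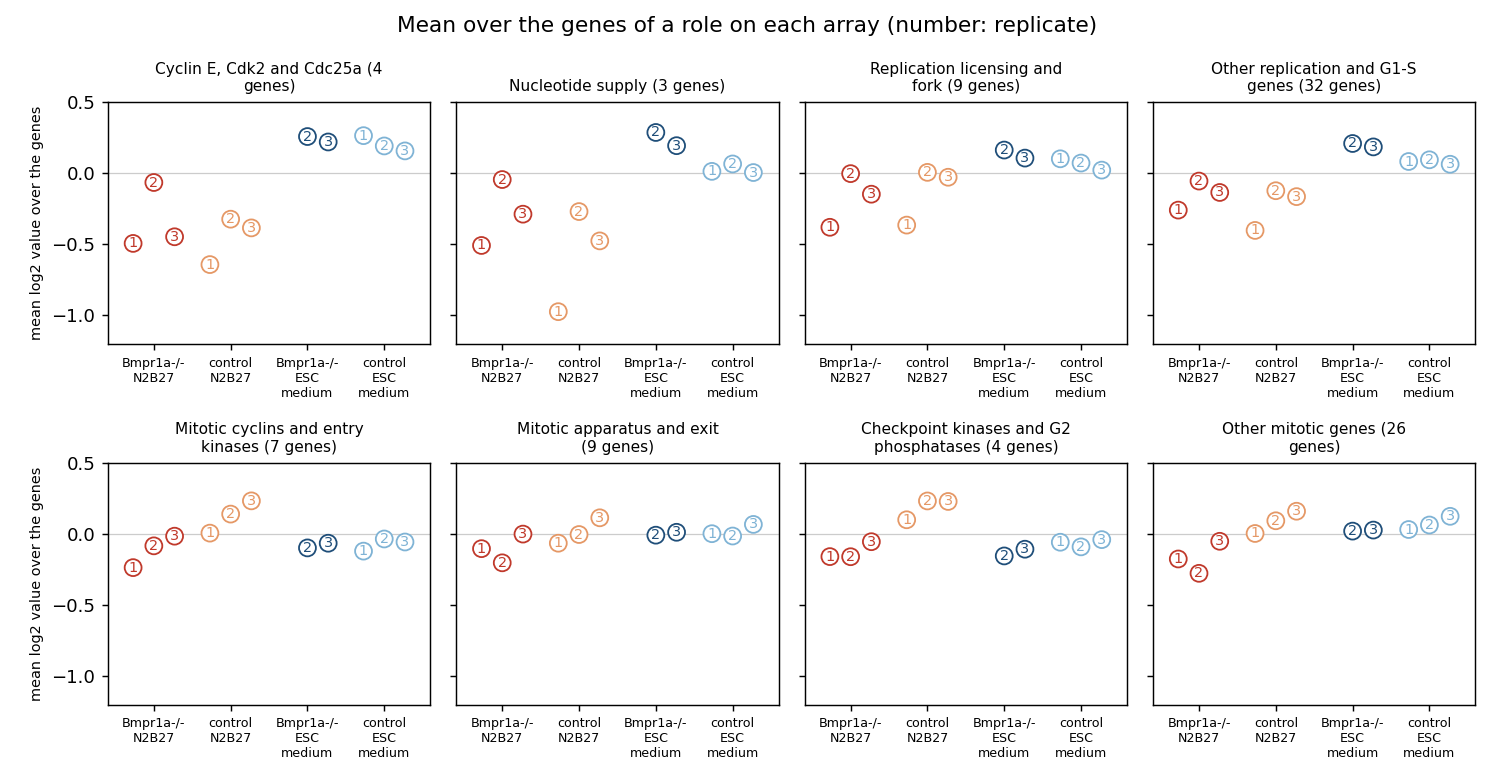
Mean log2 value over the genes of 8 role groups (panels) on each array (circled replicate number) in the 4 groups, relative to the genes' baselines. In N2B27 array 1 is the lowest of both genotypes for the licensing, nucleotide supply and other replication genes, and the G2 and mitotic entry groups are higher on the control than on the Bmpr1a-/- arrays.

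Of the genes for nucleotide supply, Rrm2, the regulated subunit of ribonucleotide reductase, stood at -0.87, -0.09 and -0.54 in Bmpr1a-/- cells in N2B27 and -1.57, -0.53 and -0.93 in control cells in N2B27, against 0.40 and 0.38 in Bmpr1a-/- cells in ESC medium and 0.05, 0.02 and -0.01 in control cells in ESC medium. The media did not overlap, and it fell by 0.89 in Bmpr1a-/- cells (SE 0.27, adjusted p = 0.0365) and by 1.03 in control cells (SE 0.24, adjusted p = 0.0108). Its partner subunit gene Rrm1 was called in neither genotype (-0.25 in Bmpr1a-/- cells and -0.03 in control cells). Tyms, the thymidylate synthase gene, stood at -0.47, 0.00 and -0.29 in Bmpr1a-/- cells in N2B27 and -1.08, -0.37 and -0.51 in control cells in N2B27, against 0.30 and 0.03 in Bmpr1a-/- cells in ESC medium and 0.07, 0.17 and 0.01 in control cells in ESC medium. The difference was -0.42 in Bmpr1a-/- cells (SE 0.20, adjusted p = 0.171), and in control cells the gene fell by 0.73 (SE 0.18, adjusted p = 0.0123).

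The phosphatases that release Cdk1 at the end of G2 rose in control cells and were lower in the mutant in N2B27. Cdc25b stood at 0.08, -0.08 and 0.07 in Bmpr1a-/- cells in N2B27 and 0.43, 0.36 and 0.43 in control cells in N2B27, against -0.40 and -0.24 in Bmpr1a-/- cells in ESC medium and -0.14, -0.29 and -0.18 in control cells in ESC medium. It rose with N2B27 by 0.34 in Bmpr1a-/- cells (SE 0.08, adjusted p = 0.00960) and by 0.61 in control cells (SE 0.07, adjusted p = 0.000234), and in N2B27 it was lower in the mutant (-0.38, SE 0.07, adjusted p = 0.0128).

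Cdc25c stood at -0.31, -0.20 and -0.13 in Bmpr1a-/- cells in N2B27 and 0.27, 0.46 and 0.44 in control cells in N2B27, against -0.27 and -0.13 in Bmpr1a-/- cells in ESC medium and 0.02, -0.03 and 0.00 in control cells in ESC medium. The control arrays in N2B27 stood above all other arrays. Against control the gene fell by 0.60 in N2B27 (SE 0.07, adjusted p = 0.00199) and differed by -0.19 in ESC medium (SE 0.08, adjusted p = 0.233). Between media it differed by -0.01 in Bmpr1a-/- cells (SE 0.08, adjusted p = 0.947) and rose by 0.39 in control cells (SE 0.07, adjusted p = 0.00301). The checkpoint kinase gene Chek1 fell with N2B27 in Bmpr1a-/- cells by 0.42 (SE 0.10, adjusted p = 0.0106) and differed by -0.14 in control cells (adjusted p = 0.301). Wee1, whose kinase holds Cdk1 inactive, was called in none of the comparisons.

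Of the 7 mitotic cyclin and entry kinase genes, 1 was called between genotypes in N2B27, Ccna2. The median difference of the 7 was -0.30, with values from -0.39 to 0.06, and 5 had an unadjusted p under 0.05, against 3856 of all 19935 genes. Ccna2 (cyclin A2, of S phase and G2) stood at -0.20, -0.11 and -0.26 in Bmpr1a-/- cells in N2B27 and 0.00, 0.12 and 0.27 in control cells in N2B27, against 0.00 and -0.06 in Bmpr1a-/- cells in ESC medium and 0.02, 0.08 and 0.09 in control cells in ESC medium. The genotypes did not overlap in N2B27 and the gene fell by 0.32 (SE 0.07, adjusted p = 0.0343). Cdk1 stood at -0.33, -0.17 and -0.01 in Bmpr1a-/- cells in N2B27 and -0.05, 0.31 and 0.38 in control cells in N2B27, against 0.21 and 0.18 in Bmpr1a-/- cells in ESC medium and 0.01, 0.04 and -0.01 in control cells in ESC medium. The genotypes overlapped in N2B27 (-0.39, SE 0.11, adjusted p = 0.0796). With the replicate number as a block Cdk1 was called lower in the mutant (adjusted p = 0.0307).

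Among the other genes of mitotic entry, Ccnb2 (cyclin B2) differed by 0.14 with N2B27 in Bmpr1a-/- cells (adjusted p = 0.425) and rose by 0.35 in control cells (SE 0.10, adjusted p = 0.0234). The kinase gene Aurkb differed by 0.18 in Bmpr1a-/- cells (adjusted p = 0.306, and 0.0431 with the replicate block). In control cells it rose by 0.51 (SE 0.10, adjusted p = 0.00345). Between genotypes in N2B27, Ccnb2 and Aurkb were called lower in the mutant with the replicate block (adjusted p = 0.0245 and 0.0181). Aurka, a related kinase gene of the spindle poles, fell in Bmpr1a-/- cells by 0.32 (SE 0.10, adjusted p = 0.0455), and its difference in control cells was -0.04 (adjusted p = 0.850). Foxm1, a transcription factor that activates genes of G2 and mitosis, rose in Bmpr1a-/- cells by 0.36 (SE 0.09, adjusted p = 0.0135), with 0.14 in control cells (adjusted p = 0.251). Plk1, a kinase that drives mitotic entry, was called in none of the comparisons in the reported fit. With the replicate block or array weights it fell in the mutant in N2B27.

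Of the genes of the mitotic apparatus, Bub1, a kinase of the spindle checkpoint, stood at 0.01, -0.28 and -0.03 in Bmpr1a-/- cells in N2B27 and 0.33, 0.36 and 0.39 in control cells in N2B27, against -0.30 and -0.15 in Bmpr1a-/- cells in ESC medium and -0.26, -0.30 and -0.07 in control cells in ESC medium. As with Cdc25c, the control arrays in N2B27 stood above all others. Bub1 was lower in the mutant in N2B27 (-0.46, SE 0.09, adjusted p = 0.0174). With N2B27 it differed by 0.12 in Bmpr1a-/- cells (SE 0.10, adjusted p = 0.464) and rose by 0.57 in control cells (SE 0.09, adjusted p = 0.00127). Birc5, of the chromosomal passenger complex, went the other way from its partner Aurkb: it differed by -0.33 in Bmpr1a-/- cells (adjusted p = 0.135) and fell by 0.55 in control cells (SE 0.13, adjusted p = 0.0118).

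Mki67, the gene of the Ki-67 proliferation marker, stood at 0.10, -0.37 and 0.30 in Bmpr1a-/- cells in N2B27 and 0.07, 0.27 and 0.42 in control cells in N2B27, against -0.26 and -0.35 in Bmpr1a-/- cells in ESC medium and 0.00, -0.27 and -0.15 in control cells in ESC medium. The difference between media was 0.31 in Bmpr1a-/- cells (SE 0.18, adjusted p = 0.253), and the control arrays did not overlap between media (0.39, SE 0.16, adjusted p = 0.0988). The other 6 genes of the group, for the spindle checkpoint (Bub1b, Cdc20), chromosome condensation (Top2a), spindle motors (Kif11, Kif23) and kinetochores (Cenpe), were not called in any comparison. The 2 clusters of Top2a differed in Bmpr1a-/- cells between media, at -0.34 (adjusted p = 0.0241) and -0.02 (adjusted p = 0.939).

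Related genes from lists made by role, 92 measured in all, widen the picture. Of 32 other replication and G1-S genes, 1 rose and 13 fell with N2B27 in Bmpr1a-/- cells, and 2 rose and 16 fell in control cells, with medians of -0.37 and -0.38. Called genes made up 43.8% and 56.2% of the list, against 25.2% and 26.1% of all genes. The origin recognition gene Orc1 fell by 0.81 in Bmpr1a-/- cells (SE 0.10, adjusted p = 0.000285) and by 0.79 in control cells (SE 0.09, adjusted p = 0.000199). Mcm10, which loads polymerase at origins, fell by 0.73 in Bmpr1a-/- cells (SE 0.17, adjusted p = 0.00939) and by 0.74 in control cells (SE 0.15, adjusted p = 0.00500). The polymerase gene Pola1, on the X chromosome, fell by 1.21 in Bmpr1a-/- cells and by 0.71 in control cells. Pole fell by 0.62 in Bmpr1a-/- cells, and Orc2 fell by 0.86 in control cells. Between genotypes Orc6, Gins4 and Orc2 were higher in the mutant in N2B27 (0.66, 0.48 and 0.37), and Pola1, Orc6, Gins4 and Cdt1 in ESC medium (0.74, 0.51, 0.42 and 0.39). Rfc4, a clamp loader gene named here after its value was seen, was lower in the mutant in ESC medium (-0.31, adjusted p = 0.0468). The called share was 9.38% of the 32 in N2B27 and 15.6% in ESC medium, against 5.74% and 6.14% of all genes. Orc6, Gins4 and Cdt1 lie on chromosome 8. The mutant call of Mcm10 between media was lost without either mutant array in ESC medium (adjusted p = 0.0734 and 0.0501), and the 3 chromosome 8 calls in ESC medium were each lost without several single arrays. Pola1 was not called between genotypes in ESC medium after quantile normalization (adjusted p = 0.0862). With the compared groups alone the calls in N2B27 ended for Orc6, Gins4 and Orc2 (adjusted p between 0.0581 and 0.0835).

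Of 26 other mitotic genes, none was higher and 4 were lower in the mutant in N2B27 (Pttg1, Prc1, Cdca8 and Tpx2), or 15.4% called, against 5.74% of all genes (1.64% lower), with a median of -0.23. Pttg1, the gene of securin, which keeps sister chromatids from separating before anaphase, stood at -0.08, 0.06 and 0.57 in Bmpr1a-/- cells in N2B27 and 1.43, 1.47 and 1.60 in control cells in N2B27, against -0.46 and -0.35 in Bmpr1a-/- cells in ESC medium and 0.61, 0.79 and 0.83 in control cells in ESC medium. The genotypes lay far apart in both media, with a difference of -1.32 in N2B27 (SE 0.15, adjusted p = 0.00139). In ESC medium it was -1.15 (SE 0.16, adjusted p = 0.00305). With N2B27 it rose by 0.59 in Bmpr1a-/- cells (SE 0.16, adjusted p = 0.0231) and by 0.75 in control cells (SE 0.15, adjusted p = 0.00385). The call in Bmpr1a-/- cells was lost without either of their arrays in ESC medium (adjusted p = 0.154 and 0.0756). Prc1, Cdca8 and Tpx2, of the central spindle, the passenger complex and spindle assembly, were lower in the mutant in N2B27 by 0.31 to 0.44, and each lost its call without several single arrays. Between media 1 of the 26 rose and 10 fell in Bmpr1a-/- cells (42.3% called, against 25.2% of all genes), and 4 rose and 3 fell in control cells (26.9%, near the 26.1% of all genes). Sgo1, which protects cohesion at centromeres, fell by 0.37 in Bmpr1a-/- cells and by 0.48 in control cells. Its call in Bmpr1a-/- cells was lost without their array 2 (adjusted p = 0.0884) or array 3 in ESC medium (0.1255) or array 3 in N2B27 (0.0545), with quantile normalization (0.0638) and with the compared groups alone (0.0893).

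Of 34 other regulators, 3 were higher and 3 lower in the mutant in N2B27, and none was higher and 2 were lower in ESC medium. That is 17.6% in N2B27, against 5.74% of all genes, and 5.88% in ESC medium, at the background of 6.14%. Cdkn1c, an imprinted Cdk inhibitor gene, stood at -0.83, -0.60 and -0.83 in Bmpr1a-/- cells in N2B27 and 0.34, 0.32 and 0.39 in control cells in N2B27, against -0.09 and -0.13 in Bmpr1a-/- cells in ESC medium and 0.73, 0.87 and 0.80 in control cells in ESC medium. Every mutant array lay below every control array of the same medium, and the gene was lower by 1.10 in N2B27 (SE 0.07, adjusted p = 5.42e-05) and by 0.91 in ESC medium (SE 0.08, adjusted p = 0.000261). Between media 8 of the 34 rose and 8 fell in Bmpr1a-/- cells (47.1%, against 25.2% of all genes), and 6 rose and 9 fell in control cells (44.1%, against 26.1%). Mybl2, which activates genes of the G1-S and G2-M transitions, fell by 1.28 in Bmpr1a-/- cells (SE 0.15, adjusted p = 0.000204) and by 1.60 in control cells (SE 0.13, adjusted p = 4.34e-05). The anti-proliferative gene Btg2 rose by 1.79 in Bmpr1a-/- cells (SE 0.24, adjusted p = 0.000495) and by 1.07 in control cells (SE 0.22, adjusted p = 0.00485), and Btg1 rose by 0.75 in Bmpr1a-/- cells and by 0.72 in control cells. The Btg1 call in Bmpr1a-/- cells was lost without their array 2 in ESC medium (adjusted p = 0.177) or array 3 in N2B27 (0.0609) and with quantile normalization (0.0525), and that in control cells without array 1 of ESC medium (0.0503) or of N2B27 (0.0519). The repressor gene E2f8 fell in Bmpr1a-/- cells by 0.82, and E2f5 rose in control cells by 0.65. E2f4 and Tfdp1, both on chromosome 8, were higher in the mutant in N2B27 (0.60 and 0.70) and lost their calls without several single arrays.

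Markers of cell types were read beside these genes. Of 9 pluripotency markers, 8 fell and 1 rose with N2B27 in each genotype, and their mean value in ESC medium was 1.04 and 1.06 on the Bmpr1a-/- arrays and 0.83 to 1.01 on the control arrays. Over all genes, 25.2% were called between media in Bmpr1a-/- cells and 26.1% in control cells. Of 9 neural progenitor markers, 3 rose in Bmpr1a-/- cells, and 2 rose and 1 fell in control cells (33.3% called in each). Of 10 fibroblast and feeder markers, 3 rose in Bmpr1a-/- cells (30% called), and 4 rose and 1 fell in control cells (50%). Between genotypes 1 fibroblast marker was lower in the mutant in N2B27 and 4 were lower in ESC medium, where the mean of the list was -0.60 and -0.52 on the Bmpr1a-/- arrays and 0.02 to 0.15 on the control arrays. Of 9 endoderm markers 1 rose in each genotype (11.1% called, below the share of all genes). Of 7 trophoblast markers 3 rose and 1 fell in Bmpr1a-/- cells (57.1%) and 2 fell in control cells (28.6%). In N2B27, 2 neural and 2 trophoblast markers were higher and 1 endoderm marker was lower in the mutant, and in ESC medium 1 neural marker was higher and 2 trophoblast markers were lower. Between genotypes in N2B27, called shares were 22.2% (neural), 10% (fibroblast), 11.1% (endoderm) and 28.6% (trophoblast), against 5.74% of all genes. In ESC medium they were 11.1%, 40%, 0% and 28.6% in the same order, against 6.14%. Centred values do not show whether a marker is absent. The part of these cell types in the results was not tested.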

How the data were processed

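The genes and lists were chosen with earlier results of these data known. Per the submitters' processing notes, the authors made the deposited log2 values with RMA in Affymetrix Expression Console 1.2 (background correction, quantile normalization between arrays, probe summary). The log base follows from the usual output of RMA. Each cluster was also centred on a baseline that the labels do not describe, which removes brightness, so no filter on dim probes could be set. Of 28815 clusters, 21780 carry 1 symbol, 1605 several and 5430 none in the platform annotation. Of the first, 21689 matched RefSeq (GRCm38.p6) by Entrez identifier. Clusters of a gene were averaged, which gave 19935 genes, 4 of the 51 with 2 clusters.

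Group means were fitted over the 4 groups with limma 3.58.1 (lmFit, eBayes) in R 4.3.3, with 7 residual degrees of freedom, and p-values (two-sided) were adjusted by Benjamini-Hochberg over all genes. Values on every array are given for genes called in a comparison, up to the 8 largest differences, and for a fixed set of cell cycle genes. Other genes are named where called, and from each related list up to 4 called genes per comparison. On simulated data for the comparison in N2B27 (19935 genes), 58 of 100 genes shifted by 0.5 and 99 of 100 shifted by 1 were called, with 8 false calls. The simulated noise was independent between arrays and genes, with 1 spread per gene on all arrays. The real arrays differ in weight (0.235 to 2.93) and correlate by number, so these figures need not hold for them.

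Arrays with the same number were checked for pairing by the correlation of their deviations from group means: between the genotypes in N2B27 it was 0.256, 0.430 and 0.158, and between the media in control cells 0.138, 0.181 and 0.131. All exceed 0.1, so in these comparisons the numbers count as pairing the arrays, which rests on the values, since the labels say nothing of it. The reported calls and p-values come from the fit without the block, which leaves this pairing out. Blocked values stand beside them where calls change. Alternatives were median centring, quantile normalization, a trended prior, array weights, the compared groups alone, 1 value per cluster, a fit without chromosomes 8, X and Y, the replicate block and each array left out. Precision is limited by the number of arrays. The promoter table served for sequences and motif letters, and the gene table for names and chromosomes.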

Additional observations from a re-analysis of the deposited data

Results flagged for a closer look

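The interaction test (limma, adjusted over all genes) set the genotype difference in N2B27 against that in ESC medium. It called 4 genes among the 51 and the 92 related genes. Called were 1.96% of the 51, 0% of the other replication and G1-S genes and 3.85% of the other mitotic genes. Of the other regulators 5.88% were called, against 2.12% of all genes. Cdkn2b had an interaction of 0.88 (adjusted p = 0.0131). The motor protein gene Kif4, on the X chromosome, had -0.84 (SE 0.13, adjusted p = 0.0143): it stood at 0.12, -0.05 and 0.19 in Bmpr1a-/- cells in N2B27 and -0.02, 0.18 and 0.30 in control cells in N2B27, against 0.59 and 0.66 in Bmpr1a-/- cells in ESC medium and -0.13, -0.15 and -0.14 in control cells in ESC medium. Ccng1, a cyclin G gene, had 0.57 (SE 0.12, adjusted p = 0.0483): it stood at 0.55, 0.41 and 0.26 in Bmpr1a-/- cells in N2B27 and 0.11, -0.08 and -0.07 in control cells in N2B27, against -0.13 and -0.17 in Bmpr1a-/- cells in ESC medium and 0.06, -0.02 and -0.04 in control cells in ESC medium. E2f7, a repressor of the E2F family, had 0.72 (SE 0.14, adjusted p = 0.0309): it stood at 0.02, 0.35 and 0.05 in Bmpr1a-/- cells in N2B27 and -0.08, -0.12 and -0.16 in control cells in N2B27, against -0.57 and -0.41 in Bmpr1a-/- cells in ESC medium and -0.13, 0.06 and -0.03 in control cells in ESC medium. Without Bmpr1a-/- array 2 in ESC medium the adjusted p was 0.0826 for Cdkn2b, 0.0713 for Kif4 and 0.162 for both Ccng1 and E2f7. Kif4 was also lost without Bmpr1a-/- array 3 in ESC medium (0.0665). The Ccng1 call was lost as well with median centring, quantile normalization, 1 value per cluster, the fit without chromosomes 8, X and Y, and each other left-out array except control array 1 and Bmpr1a-/- array 3 in N2B27, at adjusted p up to 0.1695. The E2f7 call was lost as well with quantile normalization (0.0711) and without Bmpr1a-/- array 3, control array 2 or control array 3 in ESC medium or any control array in N2B27, at adjusted p between 0.0559 and 0.0880.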

How the results depend on the processing

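No difference between groups changed sign among those called. Of the 51 genes, the number called for mutant against control in N2B27 was 6, and became 14 with array weights, 3 with the compared groups alone and 11 with the replicate block, and 3 to 8 with an array left out. In ESC medium it was 2, and became 1 with median centring, 0 with quantile normalization, 7 with array weights, 6 with the compared groups alone, 1 without chromosomes 8, X and Y and 4 with the replicate block, and 0 to 3 with an array left out. For N2B27 against ESC medium in Bmpr1a-/- cells it was 16, and became 32 with array weights and 17 with the replicate block, and 3 to 25 with an array left out. With the compared groups alone it was 11 in Bmpr1a-/- cells. In control cells it was 18, and became 26 with array weights, 22 with the compared groups alone and 20 with the replicate block, and 13 to 16 with an array left out. The interaction called 1, 7 with array weights and 3 with the replicate block, and 0 to 3 with an array left out. The share of called genes that rose in Bmpr1a-/- cells was 37.5%, and 21.4% with quantile normalization, where Ccnd2, Cdk6 and Cdc25b were lost. In ESC medium with median centring it was 0%, against 50%, as Rbl2 was lost (adjusted p = 0.0507). The causes were not tested. Called under every alternative were Cdkn2a, Cdkn2b and Cdc25c for genotype in N2B27, Ccnd3 and Rbl2 for medium in Bmpr1a-/- cells, and Ccnd1, Ccne1, Ccne2, Cdkn1b, Cdkn2b, E2f1, Rrm2, Tyms, Cdc25b, Cdc25c, Aurkb, Bub1 and Birc5 for medium in control cells. For genotype in ESC medium and for medium in Bmpr1a-/- cells only arrays 2 and 3 share numbers. For genotype in ESC medium their deviations from group means correlated at 0.0365 and 0.284, on either side of the 0.1 mark. For medium in Bmpr1a-/- cells the correlations were 0.215 and 0.266, both above that mark. What the number stands for in these comparisons was not tested.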
